A study of Mus musculus with 34 samples.

Results

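The loci described here were bound by an AP-1 monomer in TGEMs of PPARγ knockout mice and had no AP-1 peak in wild-type C57BL/6 TGEMs. Peaks of the ATF3, Jun and JunD lists of the knockout that shared at least 1 bp were joined into 35464 loci, and the 8207 loci that overlapped no peak in any of 12 C57BL/6 wild-type AP-1 lists were kept (23.1% of the knockout loci). The loci were thus selected on peak calls of these 15 lists alone. They are called knockout-only loci, and the 27257 loci that did overlap a wild-type peak are called other knockout loci. All 30 lists of the series joined in the same way gave 93075 loci. TGEMs are macrophages recruited to the peritoneum by thioglycollate. By the study's methods, the C57BL/6 and BALB/cJ mice that gave TGEMs were male and 8 weeks old, and knockout mice are not named there. The age of the knockout mice is not given in the sources used here. The knockout cells carried the genotype PPARgKO on the C57BL/6 background and were treated with Veh (PBS) alone, and how the knockout was made and in which cells it acts is not given in the sources used here. The wild-type AP-1 lists covered ATF3, Jun, JunD, Fos, Fra2 and JunB, each with Veh and after 1 h of KLA, a TLR4 agonist, so that the 3 knockout Veh lists were set against lists of both treatments. Each condition had 1 list for all its replicate experiments. Tests therefore compare loci with loci, and their p-values say nothing of the variation between mice.

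AP-1 is a dimer of basic leucine zipper proteins that binds the TRE, a palindromic heptamer, and, in dimers with ATF members, the longer CRE. In macrophages AP-1 binds largely at enhancers opened together with PU.1, the ETS factor that defines the lineage, and with CEBP proteins. PPARγ is a nuclear receptor that binds DNA with RXR and controls lipid uptake and storage genes. ATF3 also pairs with CEBP family members on a composite element, an ATF part joined to a CEBP part, which is known from genes of amino acid and stress responses.

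The central 200 bp of 5 knockout-only loci on GRCm38 (RefSeq sequence, plus strand) show what kinds of sequence the loci held. The Gclc locus aside, each came from the 5 strongest loci of its monomer combination. The Gclc locus was chosen after its values were seen, as 1 of 5 loci on chromosomes 1 to 19 and X that held all 3 monomers. Capitals mark the exact matches to the motifs listed further on. The Ptpn13 locus holds the ATF-CEBP composite, and those near St3gal5 and Wsb2 hold the PU.1 site. That near St3gal5 also holds AGGTCA, the hexamer bound by PPARγ and other nuclear receptors. The Gclc locus holds a CEBP site and the hexamer, and the Tmem267 locus holds a PU.1 site in sequence that is 98.0% repeat-masked. None of the 5 holds a TRE.
Ptpn13, chr5:103389519-103389718, ATF3: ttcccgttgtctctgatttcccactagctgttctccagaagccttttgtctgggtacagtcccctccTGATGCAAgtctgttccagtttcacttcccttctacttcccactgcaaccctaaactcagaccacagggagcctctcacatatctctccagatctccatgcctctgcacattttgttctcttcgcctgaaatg
St3gal5, chr6:72162282-72162481, JunD: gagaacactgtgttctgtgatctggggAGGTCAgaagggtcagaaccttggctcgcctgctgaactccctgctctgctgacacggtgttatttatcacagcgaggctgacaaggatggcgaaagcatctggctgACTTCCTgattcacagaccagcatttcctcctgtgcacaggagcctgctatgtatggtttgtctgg
Wsb2, chr5:117360607-117360806, ATF3 + JunD: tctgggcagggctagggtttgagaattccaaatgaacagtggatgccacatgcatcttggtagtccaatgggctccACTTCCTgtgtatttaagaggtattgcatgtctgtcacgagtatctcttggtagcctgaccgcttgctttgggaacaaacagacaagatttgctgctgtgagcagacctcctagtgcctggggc
Gclc, chr9:77709080-77709279, ATF3 + Jun + JunD: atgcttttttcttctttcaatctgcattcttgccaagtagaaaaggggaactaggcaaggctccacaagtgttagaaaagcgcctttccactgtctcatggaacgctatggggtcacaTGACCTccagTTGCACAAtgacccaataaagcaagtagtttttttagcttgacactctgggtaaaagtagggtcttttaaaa
Tmem267, chr13:119601925-119602124, Jun: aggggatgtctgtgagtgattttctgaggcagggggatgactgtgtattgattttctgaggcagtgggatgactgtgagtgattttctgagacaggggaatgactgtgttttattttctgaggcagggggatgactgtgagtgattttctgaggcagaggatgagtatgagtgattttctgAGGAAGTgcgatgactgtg

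Most knockout-only loci were bound by a single monomer. JunD alone accounted for 3892 of them and ATF3 alone for 3407, which together with 78 loci of Jun alone left 830 loci with more than 1 monomer. Of these, 768 held ATF3 and JunD, 16 held ATF3 and Jun, 23 held Jun and JunD, and 23 held all 3 monomers. Other knockout loci were spread differently, with 8483 loci of ATF3 and JunD and 3155 of all 3 monomers. Seen from the combinations, 57.2% of the 6808 loci of JunD alone were knockout-only (95% Wilson interval 56.0 to 58.3%), against 22.5% of the 15115 loci of ATF3 alone (21.9 to 23.2%), 8.30% of the 9251 loci of ATF3 and JunD (7.76 to 8.88%) and 0.724% of the 3178 loci of all 3 monomers (0.483 to 1.08%). Per monomer, 24.3% of JunD loci, 14.9% of ATF3 loci and 3.26% of Jun loci were knockout-only, where the Jun list was the smallest with 4290 peaks and the ATF3 and JunD lists held 28318 and 19355. These shares describe how the loci were selected and were not tested. Joining the 3 Veh lists of the same monomers in BALB/cJ gave 33546 loci, of which 6871 had no peak in the same 12 C57BL/6 lists (20.5%).

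**Figure D1:**
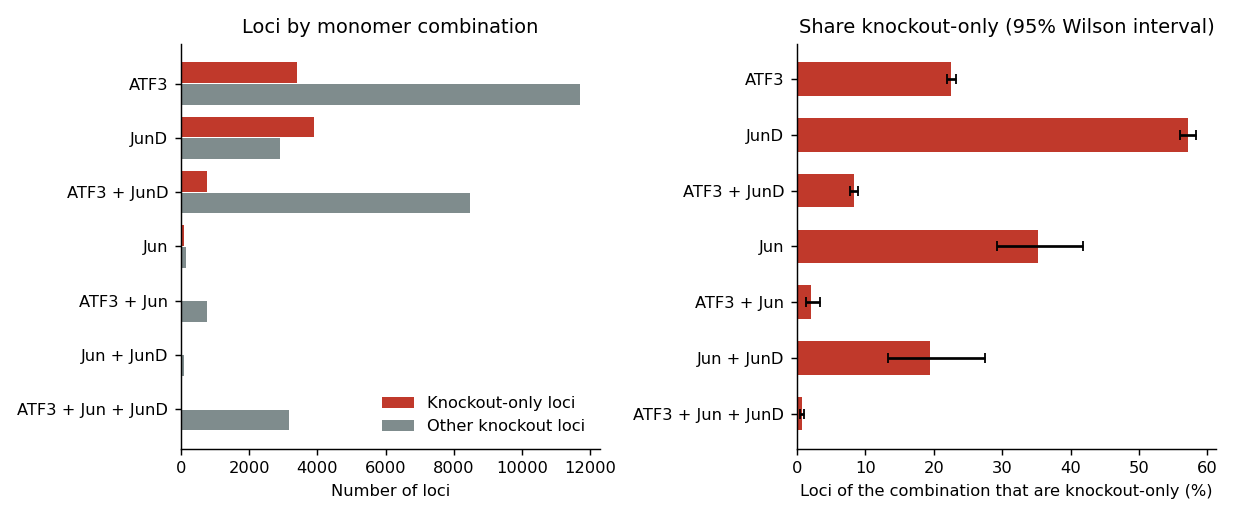
Number of knockout-only and other knockout loci by the monomers bound (left, number of loci) and the percentage of each combination that was knockout-only (right, bars with 95% Wilson intervals, which cover counting error only). The 6808 loci of JunD alone had the highest share, 57.2%, and the 3178 loci of all 3 monomers the lowest, 0.724%.

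Knockout-only loci had low counts. In the ATF3 knockout list their count ranged from 11 to 160 with a median of 17, against a median of 33 at the other loci. In the JunD knockout list the median was 20 against 43, and in the Jun list 14 against 18. Ranked within its list, a knockout-only peak lay at a median percentile of 15.4 for ATF3, 16.8 for JunD and 16.4 for Jun. In the upper 50% of the lists there were 131 of 4214 knockout-only ATF3 peaks, 253 of 4706 JunD peaks and 33 of 140 Jun peaks. The reproducibility score deposited with each peak reached its highest value of 1000 at 11.01% of the knockout-only ATF3 peaks and 20.7% of the JunD peaks, against 69.8% and 78.9% at the other loci. Of the alternatives tried, limits on peak strength moved the number of loci most, to 376 when each knockout list was limited to its stronger 50% and to 1387 when the score had to be 1000. The lowest count that a peak of the wild-type Veh lists had was 25 for ATF3, 27 for JunD and 11 for Jun, whereas in the knockout lists it was 11, 13 and 11. Counts were not scaled to depth, and the part of these floors in the number of knockout-only loci was not tested.

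**Figure D2:**
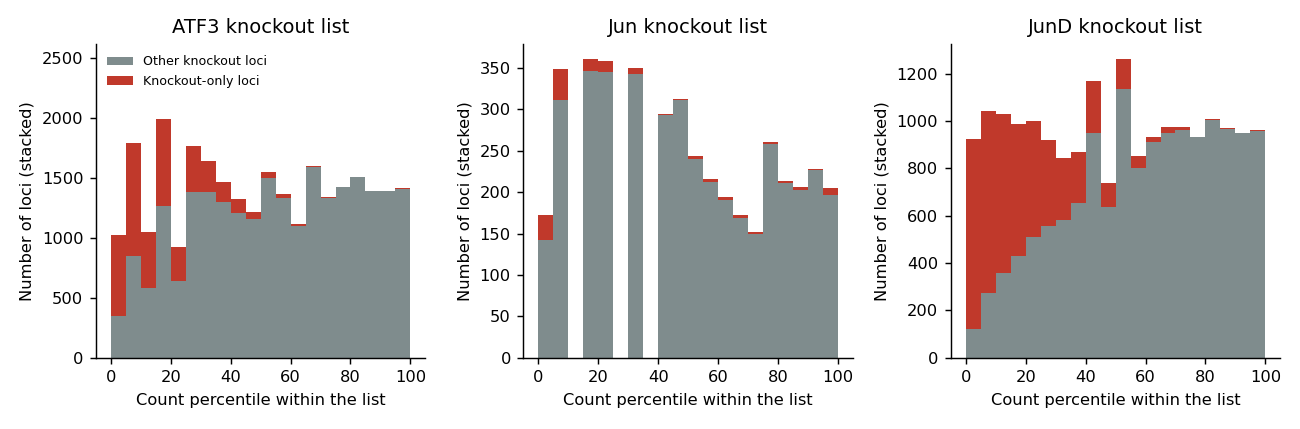
Loci by count percentile within each knockout list (x axis, 0 to 100 in bins of 5, y axis, number of loci, stacked). Knockout-only loci gather at the low end of the ATF3 and JunD lists, where their median percentiles were 15.4 and 16.8. Empty bins in the Jun list come from tied whole-number counts.

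Most of the strongest loci lay outside chromosomes 1 to 19 and X. Of the 8207 loci, 84 were on 10 unplaced or unlocalized sequences of mm10, 17 on chromosome Y and 1 on the mitochondrial genome, against only 13 other knockout loci in these places. A single unplaced sequence held 70 knockout-only loci, which was 95.9% of its 73 knockout loci, and 13 of them held all 3 monomers. In total 18 of the 23 knockout-only loci with all 3 monomers, 8 of the 10 strongest knockout-only loci and 15 of the 25 strongest were in these places. The locus with the highest mean percentile had counts of 143 for ATF3, 128 for Jun and 157 for JunD, where the highest counts of these lists were 282, 128 and 236. On unplaced and unlocalized sequences the ATF3, Jun and JunD knockout lists had 44, 46 and 65 peaks and the wild-type PPARγ list had 70, whereas each of the other lists had between 0 and 7. Of the 84 loci, 46 overlapped a peak of the wild-type PPARγ list, 2 a PU.1 peak and none a CEBPα or BALB/cJ AP-1 peak. What these 4 lists share on such sequences, and its part in the strongest knockout-only loci, was not tested. Motif values below leave the 84 loci out, since their sequence was not analysed here, whereas shares by position include them as intergenic. Without them, chromosome Y and the mitochondrial genome, 8105 loci remained, spread over chromosomes 1 to 19 and X with 20.1 to 25.8% of the knockout loci of each chromosome.

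On chromosomes 1 to 19 and X, the strongest loci of ATF3 alone were intergenic, 35883 bp from the TSS of Ptpn13, a tyrosine phosphatase gene (chr5:103389511-103389726, ATF3 count 47), in a UTR exon of Cped1 (chr6:22122295-22122504, count 47), and at the promoters of Zfp628 (chr7:4915077-4915300, count 47) and Apool, which encodes a mitochondrial inner membrane protein (chrX:112311205-112311457, count 46). Another was in an intron of Bin1, with a count of 44. All 5 overlapped a BALB/cJ AP-1 peak. The composite element lay in the Ptpn13 and Bin1 loci and a TRE in the Cped1 locus. Among loci of JunD alone, the highest count was 114 at a GC-rich intergenic locus (chr3:5860558-5860819, GC 66.5%), and other high counts were 69 near St3gal5, a ganglioside synthase gene (chr6:72162277-72162485), 58 at the promoter of Zfp341 (chr2:154613193-154613576) and 55 near Myof (chr19:37814493-37814756). The GC-rich locus lay 1751685 bp from the nearest wild-type AP-1 peak and overlapped a PPARγ and a BALB/cJ AP-1 peak. The St3gal5 locus overlapped a PU.1 and a BALB/cJ AP-1 peak, and the Zfp341 locus a CEBPα and no BALB/cJ peak. Loci of ATF3 and JunD with the highest ranks were intronic. They lay 2816 bp upstream of the TSS of Wsb2 (chr5:117360576-117360836, counts 46 and 55) and 5967 bp downstream of that of Cep170 (chr1:176801041-176801274, counts 34 and 51). Another lay 439101 bp from the TSS of Mef2c, a macrophage transcription factor gene (chr13:83064820-83065046, counts 34 and 51). These 3 ranked between percentiles 64.3 and 73.2.

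Jun was the rarest monomer among the knockout-only loci. Its highest rank on these chromosomes was at an intronic locus 4626 bp upstream of the TSS of Tmem267 (chr13:119601855-119602193, count 44, percentile 98.4). There 98.0% of the central 200 bp is repeat-masked. A neighbouring intronic locus, 6285 bp upstream of this TSS, held Jun and JunD with counts of 27 and 63 (chr13:119600188-119600542). Both overlapped no PU.1, CEBPα, PPARγ or BALB/cJ peak. The 5 loci with all 3 monomers on chromosomes 1 to 19 and X had low counts, from 12 to 23 for ATF3, 12 to 13 for Jun and 18 to 41 for JunD. They were at the promoters of Akap8 (chr17:32321095-32321416), Dr1, a general repressor of transcription (chr5:108268530-108269020), and Fbxl12 (chr9:20644621-20644915), and near Gclc (chr9:77709054-77709304) and Atp1b3 (chr9:96416451-96416794). Gclc encodes the catalytic subunit of glutamate-cysteine ligase in glutathione synthesis, and its locus overlapped PU.1, CEBPα, PPARγ and BALB/cJ AP-1 peaks.

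Many knockout-only loci were close to wild-type AP-1 binding. The gap to the nearest wild-type AP-1 peak had a median of 4572 bp, 151 loci had a gap under 100 bp, 1105 under 500 bp and 5361 under 10000 bp, and 11 had no wild-type AP-1 peak on their sequence. Just inside the rule were loci of JunD near Cryaa with a gap of 0 bp and at the promoter of Lypla2 with a gap of 1 bp. Whether peak starts count from 0 or 1 is not given in the sources used here, and if from 1 the Cryaa locus would overlap by a single base and fall outside the rule. Just outside were a locus of ATF3 and JunD near Lgalsl and a locus of ATF3 near Cd47, both with an overlap of 1 bp. Requiring a gap of at least 500 bp left 7102 loci.

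Knockout-only loci coincided with PU.1, CEBPα and PPARγ binding of wild-type TGEMs less often than the other knockout loci. A PU.1 peak (Veh or KLA) overlapped 2863 of 8207 loci or 34.9% (95% interval 33.9 to 35.9%) against 66.4% of the other loci (65.8 to 66.9%), an odds ratio of 0.271 (0.258 to 0.286). For CEBPα (Veh or KLA) the shares were 8.09% and 41.7%, with an odds ratio of 0.123 (0.113 to 0.134). For PPARγ, which had a Veh list only, they were 27.9% and 60.1%, with an odds ratio of 0.257 (0.243 to 0.271). The adjusted p of each was 3.4e-300, the smallest written (2-sided Fisher's exact test, Benjamini-Hochberg over the 17 tests of overlap, promoter and motif). Since the knockout-only loci had lower counts and fewer monomers, the odds ratios were also taken within strata of monomer combination and quintile of count percentile. They were nearer to 1, at 0.499 (0.468 to 0.532) for PU.1, 0.379 (0.345 to 0.417) for CEBPα and 0.579 (0.541 to 0.619) for PPARγ. In the middle quintile, for example, 46.3% of the knockout-only and 63.2% of the other loci overlapped a PU.1 peak.

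None of the 3 regulators was found at 3888 knockout-only loci (47.4%, 46.3 to 48.5%) against 13.1% of the other loci (12.7 to 13.5%). PU.1 alone of the 3 was at 1571 loci, 19.1% of the knockout-only loci against 13.4% of the others, so that this combination had a higher share although PU.1 peaks as a whole had a lower one. PPARγ without PU.1 or CEBPα was at 1063, which was 12.95% of the knockout-only loci and 8.75% of the others. The 3 regulators together were at 102 loci, or 1.24%, against 22.3% of the others. These combinations were counted and not tested.

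AP-1 lists of wild-type BALB/cJ TGEMs, a strain that differs from C57BL/6 at many sites in the genome, held a peak at 2791 of the knockout-only loci. This was 34.01% (33.0 to 35.0%) against 92.7% of the other loci (92.3 to 93.0%), an odds ratio of 0.0409 (0.0383 to 0.0436, adjusted p = 3.4e-300, Fisher's exact test), or 0.116 (0.108 to 0.125) within strata. By the rule the other loci had a wild-type C57BL/6 AP-1 peak and the knockout-only loci had none. The direction for wild-type peaks of the same monomers in BALB/cJ was thus largely set by the rule, and the test cannot serve as separate evidence. Of the 2791 loci, 1630 were in a BALB/cJ Veh list and 1161 were found after KLA only. By list, JunD in Veh overlapped 1267 knockout-only loci or 15.4% (65.7% of the other loci), Fos after KLA 906 or 11.04% (76.4%), ATF3 after KLA 850 or 10.4% (76.0%) and JunD after KLA 850 or 10.4% (66.9%). ATF3 in Veh overlapped 556 or 6.77% (55.1%) and Jun in Veh 105 or 1.28% (34.5%). The list with the highest share was thus JunD in Veh at knockout-only loci and Fos after KLA at the other loci. For Fos in Veh the list had 0 peaks and for JunB in Veh 9. No PU.1, CEBPα, PPARγ or BALB/cJ AP-1 peak was found at 2982 knockout-only loci, 36.3% of them, against 1.94% of the other loci. These 2982 loci had a median percentile of 8.83, and 1676 were of JunD alone and 1137 of ATF3 alone.

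**Figure D3:**
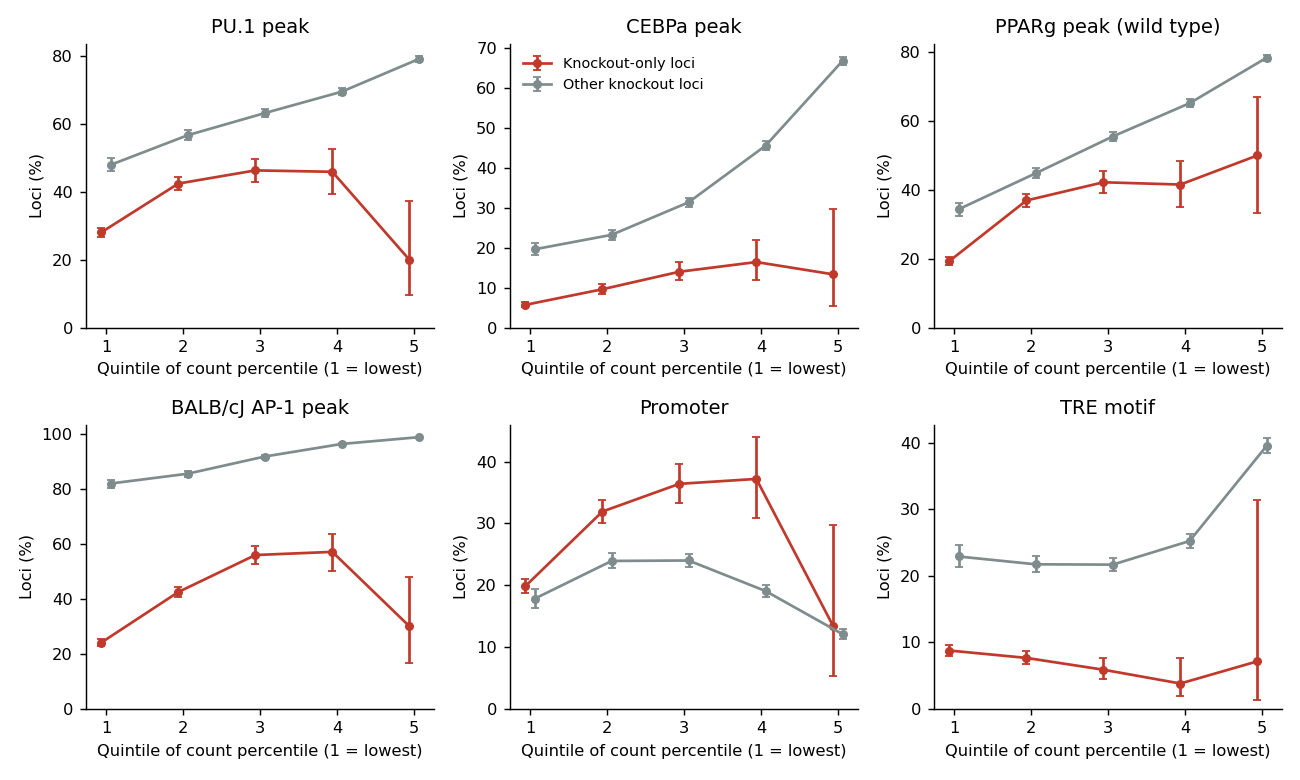
Percentage of loci with a PU.1, CEBPα, PPARγ or BALB/cJ AP-1 peak, at a promoter or with a TRE (y axis), by quintile of the mean count percentile of the locus (x axis, 1 lowest), with 95% Wilson intervals. In quintiles 1 to 4 the knockout-only loci lie below the other loci for all but the promoter panel. The highest quintile holds 30 knockout-only loci.

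More of the knockout-only loci were at promoters. The centre lay within 1 kb of a protein-coding TSS at 2115 loci or 25.8% (24.8 to 26.7%), against 19.1% of the other loci (18.6 to 19.5%), an odds ratio of 1.47 (1.39 to 1.56, adjusted p = 1.35e-37, Fisher's exact test) and 1.34 (1.24 to 1.44) within strata. The direction was not shared by the monomers. Among loci of ATF3 alone, 22.0% of the knockout-only and 17.7% of the other loci were at a promoter (odds ratio 1.31, 1.19 to 1.44), and among loci of JunD alone 28.0% and 30.7% (0.877, 0.789 to 0.974). The ratio of these odds ratios was 1.50 (adjusted p of the difference 3.73e-07, z test of log odds ratios, chosen after the data were seen). Of the rest of the knockout-only loci, 36.1% were intronic, 33.3% intergenic, 2.72% in coding exons and 2.12% in UTR exons, against 40.5%, 37.0%, 1.82% and 1.58% of the other loci. The median GC content of the central 200 bp was 50.5% against 49.0%, and over 50% of the bases were repeat-masked at 471 loci or 5.80%, against 2.88% of the other loci.

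The TRE was rare. TGACTCA was found in the central 200 bp of 650 of 8123 knockout-only loci, 8.00% (7.43 to 8.61%), against 27.4% of the other loci (26.8 to 27.9%) and 3.11% of all 200-bp windows of the genome. The odds ratio was 0.231 (0.212 to 0.251, adjusted p = 3.4e-300, Fisher's exact test) and 0.324 (0.293 to 0.358) within strata. This was the lowest odds ratio of the 12 motifs searched. Where a TRE was present its distance from the centre of the locus had a median of 31 bp, and 43.1% of 682 sites (39.4 to 46.9%) lay within 25 bp, against 52.0% of 8377 sites at the other loci (50.9 to 53.1%). The CRE, TGACGTCA, was in 0.985% against 1.95% (odds ratio 0.500, adjusted p = 1.29e-09, Fisher's exact test) and 0.108% of windows, although within strata the odds ratio of 0.841 (0.632 to 1.12) did not pass the test. By the rule the other loci had an AP-1 peak in knockout and wild-type lists, and the knockout-only loci in knockout lists alone. The direction for the TRE and the CRE, both AP-1 sites, may thus be set in part by the rule. These tests cannot serve as separate evidence.

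Of the other motifs, PU.1 sites (AGGAAGT) were in 17.3% of knockout-only and 21.4% of other loci, CEBP sites (TTGCNNAA) in 11.5% and 17.1%, the nuclear receptor hexamer (AGGTCA) in 13.02% and 16.4%, Runx sites (TGTGGTT) in 5.71% and 7.15% and IRF sites (GAAANNGAA) in 5.88% and 7.59%. All of these had a lower odds ratio, between 0.631 and 0.787, with adjusted p at or below 6.46e-06 (Fisher's exact test), and within strata all but the CEBP site (0.947, 0.862 to 1.04) passed the test again. The DR1 element, on which PPARγ binds with RXR, was searched as a direct repeat of the hexamer with 1 base between and up to 2 mismatches. A match so defined need not hold an exact hexamer. DR1 was in 2.93% and 3.46% (adjusted p = 0.0196, Fisher's exact test, and 0.0531 within strata). Sp/Klf boxes (GGGGCGGG), common in promoters, were in 6.45% and 4.75%, an odds ratio of 1.38 (1.25 to 1.54, adjusted p = 4.48e-09, Fisher's exact test), and 1.36 within strata. The promoter ETS site bound by GABPA (CCGGAAGT) was in 2.14% and 1.73% (adjusted p = 0.0181, Fisher's exact test, but 0.214 within strata). The E-box of the MiT/TFE factors (TCACGTG) was in 3.13% and 3.43%, a difference that missed the threshold (odds ratio 0.907, 0.788 to 1.04). In genome windows the shares were 4.79% for PU.1, 9.35% for CEBP, 11.1% for the hexamer, 4.71% for Runx, 7.91% for IRF, 0.500% for Sp/Klf, 0.121% for the ETS site and 0.793% for the E-box, and that of DR1 was not computed.

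**Figure D4:**
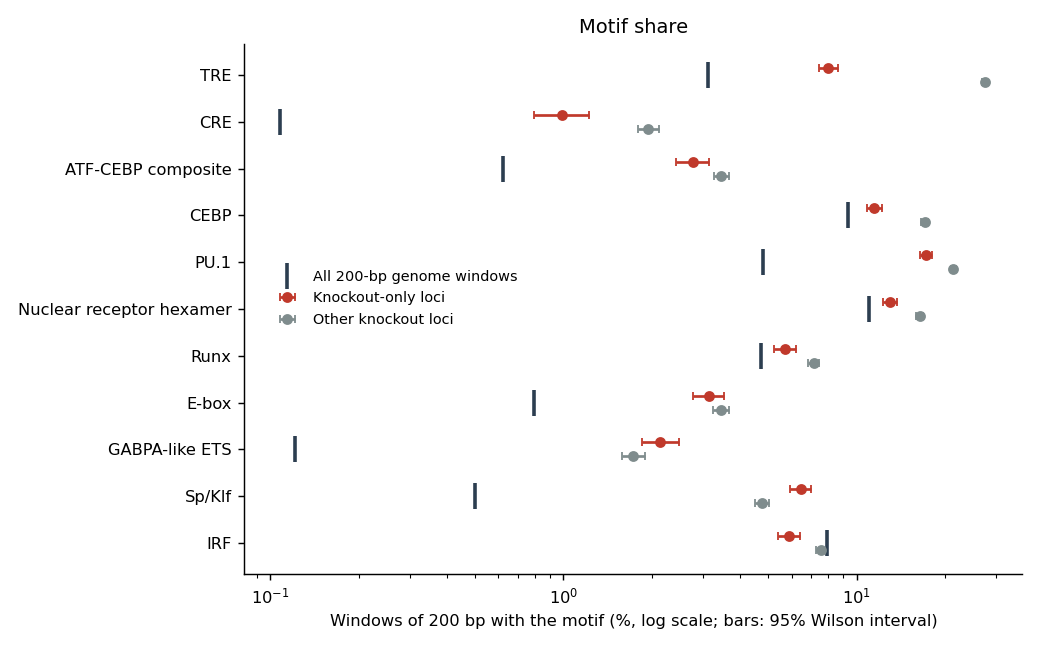
Percentage of 200-bp windows with each of the 11 exact motifs (x axis, log scale) at knockout-only loci, at other knockout loci (points with 95% Wilson intervals) and over all windows of the genome (vertical ticks). The TRE shows the widest gap, 8.00% against 27.4%, and the Sp/Klf box is higher at knockout-only loci, 6.45% against 4.75%.

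The ATF-CEBP composite (TGATGCAA) passed the test in opposite directions over all loci and within strata. The odds ratio of the E-box also changed sides, to 1.10 (0.926 to 1.32), without passing either test. Over all loci it was in 2.76% of the knockout-only and 3.46% of the other loci (odds ratio 0.791, 0.682 to 0.917, adjusted p = 0.00198, Fisher's exact test), and within strata the odds ratio was 1.83 (1.51 to 2.23, adjusted p = 3.52e-09, Mantel-Haenszel). Among loci of a single monomer it was mostly at ATF3 loci, being in 201 of 3398 knockout-only loci of ATF3 alone and 15 of 3870 of JunD alone. Among loci of ATF3 alone the shares were 5.92% and 5.38% (odds ratio 1.11, 0.939 to 1.30), but the motif was more frequent at knockout-only loci in each of the 4 lower quintiles of count percentile. There it was in 5.42%, 5.11%, 8.29% and 17.3% of the knockout-only loci and in 2.31%, 2.91%, 4.12% and 6.57% of the others. Over the 3398 knockout-only and 11707 other loci of ATF3 alone, the odds ratio within quintiles was 2.19 (95% interval 1.77 to 2.70, Mantel-Haenszel, chosen after the data were seen). In the same strata the TRE went the other way, with 8.86% against 22.6% in the middle quintile and an odds ratio of 0.377 (0.330 to 0.431). The share of the composite over genome windows was 0.620%.

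Knockout-only loci of ATF3 alone and of JunD alone were compared with each other over the same 17 features, a comparison chosen after the data were seen. ATF3 loci had more CEBPα peaks (12.4% against 3.73%, odds ratio 3.67, 3.02 to 4.46), CEBP sites (16.4% against 7.08%, odds ratio 2.57), composite elements (5.92% against 0.388%, odds ratio 16.2, 9.54 to 27.4) and TREs (10.2% against 5.92%, odds ratio 1.80). They also had more BALB/cJ AP-1 peaks, 40.1% against 25.8% (odds ratio 1.92, 1.74 to 2.12). JunD loci had more PPARγ peaks (28.1% against 22.6%), promoters (28.0% against 22.0%) and Sp/Klf boxes (7.08% against 4.91%). All of these had adjusted p at or below 0.000252 (Fisher's exact test). The other knockout loci of ATF3 alone and of JunD alone differed in the same directions, with CEBPα peaks at 39.8% against 19.8%, CEBP sites at 18.9% against 10.4%, composite elements at 5.38% against 0.343%, TREs at 23.5% against 17.2%, BALB/cJ peaks at 90.9% against 83.8%, PPARγ peaks at 45.5% against 54.4%, promoters at 17.7% against 30.7% and Sp/Klf boxes at 4.11% against 7.48%. PU.1 peaks were at 34.1% of ATF3 and 32.9% of JunD loci, with an odds ratio of 1.06 whose interval of 0.958 to 1.16 includes 1. The 768 loci with both monomers had PU.1 peaks at 51.0%, PPARγ peaks at 49.1%, BALB/cJ peaks at 52.0% and promoters at 33.3%, each above both single-monomer groups, which was not tested.

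**Figure D5:**
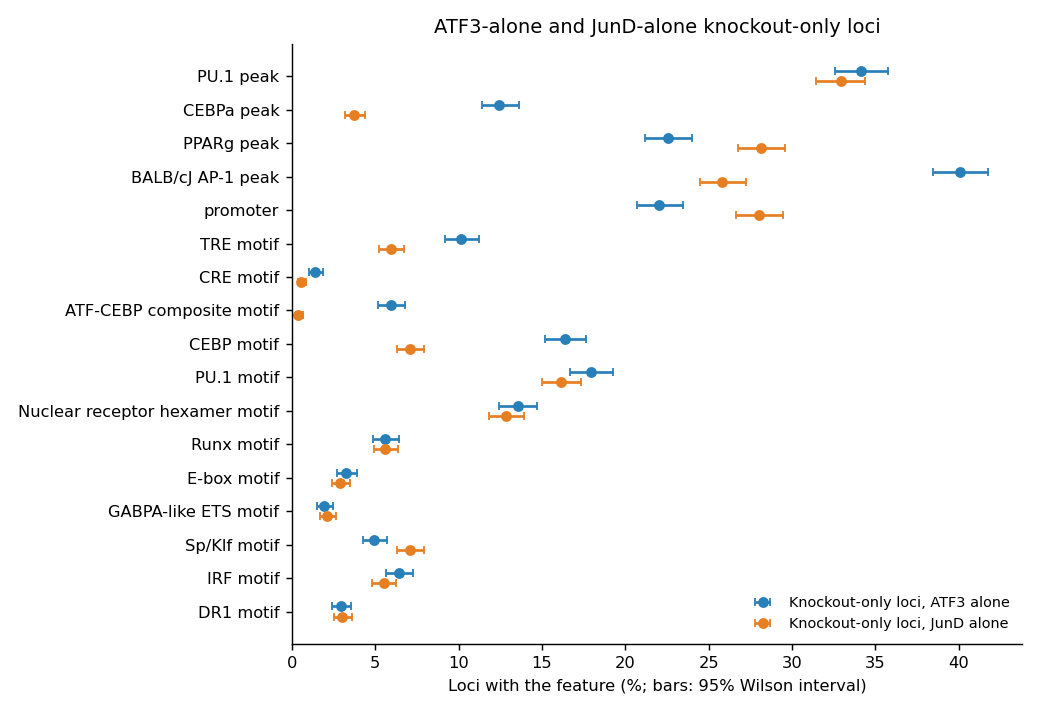
Percentage of knockout-only loci with each feature (x axis) for the 3407 loci of ATF3 alone and the 3892 of JunD alone, with 95% Wilson intervals. CEBPα peaks, CEBP sites and composite elements are at more ATF3 loci, and PPARγ peaks, promoters and Sp/Klf boxes at more JunD loci.

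A knockout-only locus lay in the body or within 5 kb of 5220 of 21924 protein-coding genes (23.8%), and another knockout locus at 9076 (41.4%). Long genes and genes close together gather more loci, so that counts over gene lists are given beside these shares with no test. Counting the nearest TSS instead moved 7 of the list counts by over 1.5 times, as given with the alternatives. At Pparg itself there were 2 knockout-only loci, both of ATF3 alone and both weak. One was at the promoter, 202 bp from the TSS (chr6:115361043-115361264), with a count of 17, and it overlapped a wild-type PPARγ peak and a BALB/cJ JunD peak. The other was in an intron (chr6:115368702-115368907), with a count of 16 and a CEBPα peak. Of 97 knockout loci within 1 Mb of Pparg, 32 were knockout-only, or 33.0%, and of 454 within 10 Mb 28.0%, against 23.1% over all knockout loci. The smaller window is part of the larger, and neither share was tested. The highest of the 32 was near Alox5, the gene of a leukotriene-forming lipoxygenase (chr6:116468205-116468433, ATF3 count 33).

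Among 19 PPARγ lipid target genes, 4 had a knockout-only locus and 15 another knockout locus. Besides Pparg they were Lpl (lipoprotein lipase, promoter, chr8:68881101-68881343, JunD count 20), Cpt1a (carnitine palmitoyltransferase, promoter, ATF3 count 16) and Nr1h3 (LXRα, ATF3 count 16), whose locus lay within 5 kb of the gene at the promoter of Madd. The Lpl, Cpt1a and Nr1h3 loci overlapped no wild-type PPARγ peak, and all 3 held the hexamer. Over all loci the hexamer was in 13.02% of the knockout-only and 16.4% of the other loci, and in 11.1% of genome windows. Of 11 alternative activation genes found, 4 had such a locus, the strongest in a coding exon of the scavenger receptor gene Cd163 (chr6:124309054-124309287, ATF3 count 35, with a TRE), and another at the promoter of Arg1 (ATF3 count 21). Inflammatory genes had few, 2 of 20 (near Cxcl9 and Ccl3, counts 13 and 23), although all 20 had another knockout locus. Ifit2 was the 1 gene of 16 interferon response genes with a knockout-only locus.

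Lysosome and autophagy genes held knockout-only loci at 14 of 18, and other knockout loci at 17 of 18. Ctsb (cathepsin B) had a JunD locus in a UTR exon with a count of 44. Tfeb, which encodes a transcription factor for lysosomal genes, had a promoter locus of ATF3 and JunD with counts of 18 and 47 (chr17:47736803-47737107), and Lamp1 had a JunD locus with a count of 37. The Ctsb locus in question (chr14:63145492-63145712) is counted for the cholesterol synthesis gene Fdft1 too, since both genes lie within 5 kb. Of 20 integrated stress response genes, 7 had a knockout-only locus, among them Trib3, a pseudokinase gene (promoter, chr2:152343443-152343658, ATF3 count 24), Chac1, a glutathione-degrading enzyme gene (chr2:119358229-119358454, ATF3 count 19), and the cystine transporter gene Slc7a11, with 2 intronic ATF3 loci of counts 19 and 17. None of the loci of these 7 genes held the composite element. The composite was in the locus of Gclm, which encodes the regulatory subunit of glutamate-cysteine ligase (chr3:122251078-122251293, ATF3 count 23), 1 of 3 genes of 12 in the antioxidant and iron list.

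Of 16 AP-1 family genes 6 had a knockout-only locus, including Jund (chr8:70700514-70700882, ATF3 count 18 and JunD count 26) and the promoter of Fos (ATF3 count 19). The locus counted for Fosl1 (ATF3 count 14) was at the promoter of the neighbouring gene Fibp. Among 16 cholesterol synthesis genes there were 3, and among 18 cell cycle genes 5, among them the promoters of Ccne1 (ATF3 count 18, JunD count 29) and Myc (ATF3 count 18). Macrophage marker genes had them at 10 of 12, with another knockout locus at 11 of 12, and genes of large peritoneal macrophages at 2 of 8. For markers of other cells the counts were 1 of 8 for neutrophils, 1 of 5 for eosinophils, 0 of 6 for mast cells, 1 of 8 for B cells, 3 of 8 for T and NK cells, 2 of 6 for dendritic cells and 1 of 8 for fibroblasts and mesothelium. The T and NK cell genes were Cd8a, Cd4 and Klrb1c.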

How the data were processed

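ChIP-seq of TGEMs gave 34 samples, of which 30 come with a peak list and 4 are inputs. By the study's methods, the authors used Bowtie2 for alignment to mm10, or for BALB/cJ to a genome of that strain whose positions were then shifted to mm10. Peaks came from HOMER, with an input as control, and had to have an IDR below 0.05 between replicate experiments. Each list holds a deposited count per peak, a whole number not scaled to depth, and a deposited score, the scaled IDR. The way in which replicates enter the count is not given in the sources used here, so counts were only ranked within a list. Deposited counts summed to between 88033 and 1127079 in the knockout lists, and shares carry 95% Wilson intervals that cover counting error only.

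Loci, overlaps (at least 1 bp) and statistics were computed with Python 3.11.15, numpy 2.4.6, pandas 2.3.3 and scipy 1.17.1, and checked on simulated intervals and tables. Genes and TSSs were those of GENCODE M21, and sequences those of GRCm38, the same assembly as mm10. The central 200 bp of each locus were searched for exact motif letters on either strand, and for DR1 with up to 2 mismatches. Knockout-only and other knockout loci were compared by 2-sided Fisher's exact tests with Benjamini-Hochberg adjustment over 17 tests, and within 33 strata of monomer combination and count quintile (29 for motifs) by Mantel-Haenszel odds ratios. A p below 1e-300 was written as 1e-300 before adjustment. Named loci were the 5 with the highest count percentile per combination, those with all 3 monomers, the highest in each gene list, those around Pparg and those nearest to the limits of the rule. Loci on chromosomes 1 to 19 and X that take the place of loci elsewhere, other list loci and the strongest Pparg neighbour were chosen after their values were seen. Members and lists were chosen with earlier results of these data known. A gene and its locus are not reported here.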

Additional observations from a re-analysis of the deposited data

Results flagged for a closer look

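The odds ratio between knockout-only and other knockout loci differed between loci of ATF3 alone and loci of JunD alone for 4 of the 17 features. For promoters the ratio of the odds ratios was 1.50, with 1.31 for ATF3 alone and 0.877 for JunD alone. For the GABPA-like ETS site it was 1.90, with 1.94% against 1.46% of ATF3 loci (odds ratio 1.34) and 2.12% against 2.99% of JunD loci (odds ratio 0.703). For PU.1 and CEBPα peaks both odds ratios were below 1. For PU.1 they were 0.387 for ATF3 alone and 0.290 for JunD alone, a ratio of 1.33, and for CEBPα 0.215 and 0.157, a ratio of 1.37. In this order the adjusted p of the difference was 3.73e-07, 0.0152, 9.33e-05 and 0.0184 (z test of log odds ratios over 17 features, chosen after the data were seen).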

How the results depend on the processing

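The number of knockout-only loci, 8207, stayed within 1.5-fold with peak centres, wild-type peaks widened by 100 or 500 bp, without the Jun list and on chromosomes 1 to 19 and X (7102 to 8952). It was 376 in the stronger 50% of each knockout list, 1387 with a score of 1000, 12341 against the 6 Veh lists, 12691 against ATF3, Jun and JunD in Veh, 5416 with the BALB/cJ lists added to the exclusion, 4814 without the ATF3 list and 4321 without the JunD list. Odds ratios for PU.1, CEBPα, PPARγ and BALB/cJ peaks kept direction and side of the threshold in every alternative. The rule largely set the direction for BALB/cJ peaks and may have set it in part for the others. The odds ratio for promoters kept direction and side of the threshold except in loci of JunD alone, where it was 0.877. Of the motifs, 9 were lower and 2 higher at knockout-only loci. Lower motifs numbered 5 within strata and 3 in the stronger 50%, and higher motifs 1 without the ATF3 list and 0 in loci of ATF3 alone or of JunD alone. The odds ratio of the composite turned to 1.83 within strata, 1.07 in the stronger 50%, 1.11 in ATF3 alone and 1.13 in JunD alone, that of the E-box to 1.10, 1.67 and 1.00 in the first 3 of these, and in JunD alone that of the ETS site was 0.703 and of the Sp/Klf box 0.942. The cause was not tested. Genes counted over all lists numbered 70 by body and flank and 86 by nearest TSS. By nearest TSS the count went from 4 to 7 for PPARγ lipid targets and for alternative activation, from 3 to 5 for cholesterol synthesis, from 2 to 5 for large peritoneal macrophages, from 1 to 3 for fibroblasts and mesothelium, from 2 to 1 for dendritic cells and from 0 to 1 for mast cells. Alternatives on chromosomes and single monomers were added after the data were seen. No paired analysis was possible because each condition has 1 list. Few counts per peak limit what the weaker lists could show.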
